A study of Mus musculus with 9 samples.

Results

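Lysosomes are the acidic compartments in which cells take apart proteins, glycans, sulfated sugars and lipids. Their soluble hydrolases are made in the secretory pathway and mostly carried to the lysosome by the mannose 6-phosphate tag, their membrane proteins protect the compartment and move products out, and the proton pump called the V-ATPase keeps it acidic. In neutrophils and in macrophages the same enzymes act on ingested material, and TFEB and related transcription factors are known for acting on many lysosomal genes at once. The genes described here are 32 lysosomal genes of the 22173 in each file, chosen as a fixed list of symbols and all found. They comprise 7 proteases, 9 glycosidases, 2 sulfatases, 3 lipid hydrolases, 3 soluble cofactors and lipid carriers, and 8 membrane proteins.

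RNA was sequenced from wild-type mouse neutrophils derived from bone marrow, kept for 2 days inside gelatin methacryloyl (GelMA) hydrogel, a crosslinked gelatin of adjustable stiffness. The low gel had an elastic modulus of 1.5 kPa and served as the control, the middle gel 2.6 kPa and the high gel 5.7 kPa, each with 3 libraries, so 9 altogether. Gel, medium with serum and time in culture were otherwise common to all groups. By its title, the study concerns the effect of stiffness on how neutrophils polarize. The labels number the replicates but do not say whether they came from separate mice or cultures, so the p-values reflect spread among libraries that may be technical in part.

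Libraries held 13172879 to 19486546 counts, and the 32 genes took 2.01% to 3.92% of them. All 32 passed the filter on low counts, which kept 12094 genes. Replicate 1 of every group stood apart from replicates 2 and 3. The 15 neutrophil markers summed to 5450 to 7660 RPKM (counts per kilobase of exon and per 1e6 counts, scaled by TMM, a normalization between libraries) in replicate 1 and to 23000 to 34700 RPKM in replicates 2 and 3. The 15 macrophage markers summed to 2580 to 3060 RPKM in low, 2050 to 2150 in middle and 1680 to 2420 in high. Adgre1, Csf1r and Gpnmb, defining macrophage genes, were present in every library of these cells labelled as neutrophils, with Adgre1 at 145.5 to 232.7 RPKM, beside S100a8 at 2492 to 14540 RPKM and Ly6g at 5.40 to 54.7 RPKM. Of the 8 osteoclast markers 4 were under 1 RPKM in every library, as were 5 of the 6 T and NK cell markers in the files. The other osteoclast markers stood at 11.9 RPKM or more (Acp5), 5.78 (Ctsk), 74.2 (Mmp9, also a neutrophil marker) and 10.4 (Itgb3). Marker sums ran from 360 to 1230 RPKM for monocytes, 19.2 to 110 for B cells and 10.6 to 19.4 for dendritic cells. They ran from 11.2 to 65.1 for eosinophils, basophils and mast cells and 482 to 1210 for erythroid cells and megakaryocytes. Stromal and endothelial markers summed to 8.47 to 17.9. In bulk RNA, fewer cells of a type and less RNA per cell cannot be told apart.

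Summed levels of the 32 genes were 14880, 13340 and 12340 RPKM in low replicates 1 to 3, 13920, 9753 and 9853 in middle and 14490, 9295 and 7931 in high. Relative to low, the sum in high changed by -2.63% within replicate 1, -30.3% within replicate 2 and -35.7% within replicate 3. The macrophage marker sum changed by -6.36%, -40.5% and -42.3% in replicates 1 to 3, and the neutrophil marker sum by 40.6%, -33.9% and -17.4%. In replicate 1 that rise lay mostly in S100a8 (2492 to 3526 RPKM) and Lcn2 (492 to 1517 RPKM). There Ltf, Ngp, Retnlg, Cxcr2, Csf3r, Cd177, Mpo and Elane were lower in high, and the other neutrophil markers higher. Of the 15 macrophage markers 7 fell and 3 rose in high, beside 8.73% and 6.72% of all genes (median log2 difference -0.94). These values, and the log2 differences that follow, are from the fit with the replicate block described below. Gpnmb, the most abundant macrophage marker in most libraries, fell (-1.04 ± 0.20 (SE)), as did Maf (-1.13 ± 0.13) and Mertk (-0.94 ± 0.12). Csf1r (0.59 ± 0.10) and Adgre1 (0.38 ± 0.10) rose. The part of either cell type in the lysosomal sums was not tested. Psap and Ctsd, the most abundant members, made up 44.1% to 55.2% of the sum in each library.

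**Figure D1:**
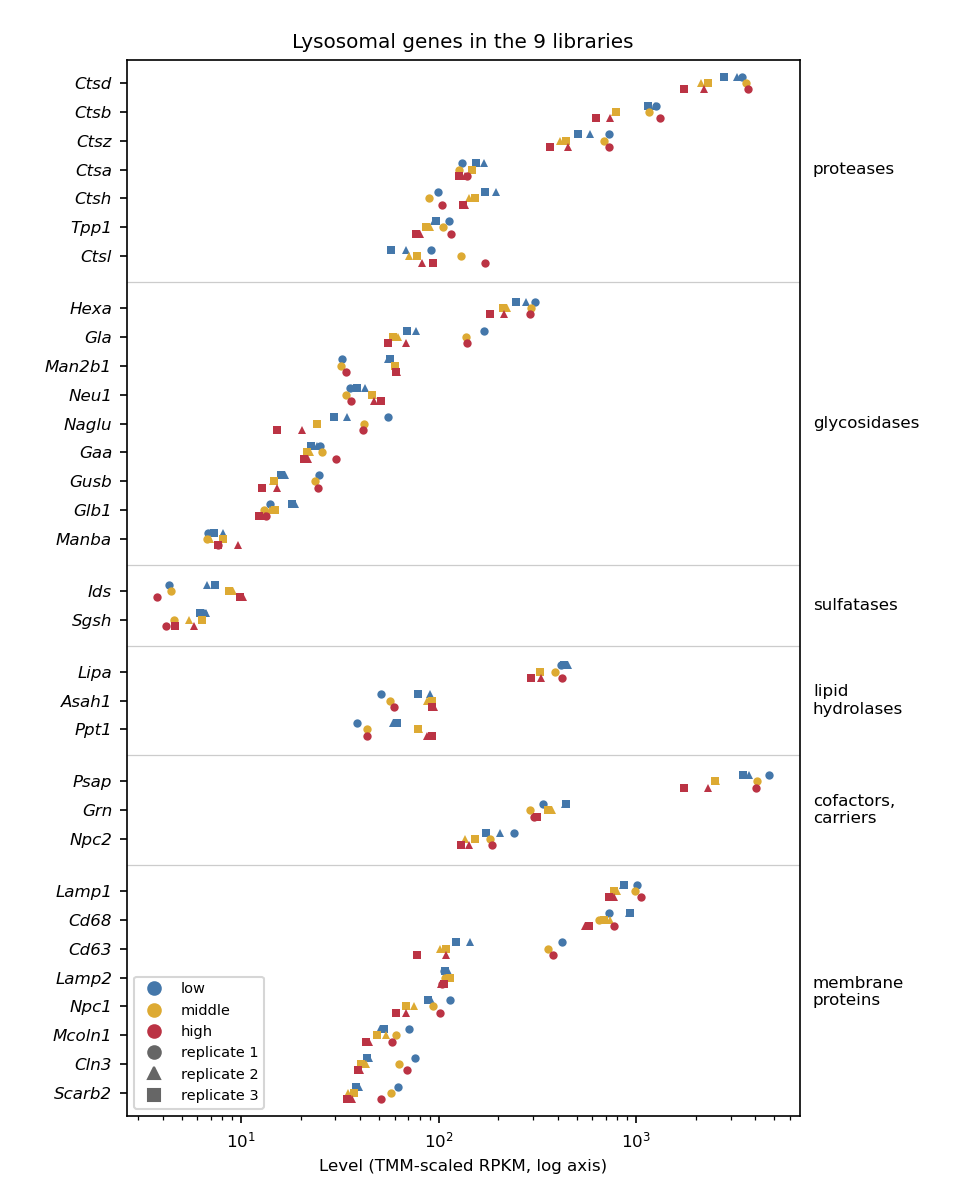
Level of each of the 32 genes in the 9 libraries, as TMM-scaled RPKM on a log axis, with colour for the gel and marker shape for the replicate number. Genes are grouped by class and ordered by mean level; Psap (mean 3229 RPKM) and Ctsd (2787 RPKM) lie highest, and replicate 1 (circles) is set apart for genes such as Cd63 and Gla.

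Tested on the 3 groups alone, none of the 32 genes was called. By edgeR's quasi-likelihood test at a Benjamini-Hochberg adjusted p under 0.05, 0 members passed for middle against low, high against low or high against middle, where 0%, 0.091% and 0% of all genes did. At an unadjusted p under 0.05 there were 0, 2 and 0 members, where 318, 934 and 179 of the 12094 genes passed. The 2 were Glb1 and Cd68, both with negative differences. DESeq2 also called 0 members in each comparison. Libraries of the same replicate number deviated together from their group means (correlations of 0.595 to 0.856). So did replicates 2 and 3 of different gels (0.552 to 0.698), and 0 of 12094 genes were called between replicates 3 and 2. The numbers thus set replicate 1 apart, without showing that libraries numbered 2 or 3 are matched across gels. The replicate number was also fitted as a block, and the values below are from that fit unless stated. With it, 11 of the 32 differed between high and low. In high, 9 members fell (Naglu, Psap, Npc2, Npc1, Grn, Glb1, Cd63, Hexa and Ctsb), against 8.73% of all genes, and 2 rose (Ctsl and Ppt1), against 6.72%. The median log2 difference over the 32 was -0.26, beside -0.0026 over all 12094 genes, and 25 of the 32 were negative beside 50.3% of all genes. The count of 11 depended on single libraries, being 18 without low replicate 1, 19 without high replicate 1, 2 without low replicate 2, high replicate 2 or high replicate 3, 3 without low replicate 3 and 7 without any 1 middle library. Ctsl and Naglu passed in all 9 of these fits. Npc2 passed in 6, Psap, Npc1 and Ppt1 in 5, Grn in 4, Cd63 in 3, and Glb1, Hexa and Ctsb in 2. The share of all genes called in these fits is not given here. The counts therefore do not show a change particular to the members.

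Middle against low gave 0 members with the block, where 0.81% of all genes were higher and 1.03% lower. At an unadjusted p under 0.05 there were 15 members, beside 1768 of all 12094 genes, and DESeq2 called 2 members. The count at the adjusted threshold was 12 without low replicate 1 and 4 without high replicate 1. Shares of all genes in those fits are not given here. The median difference of the 32 genes was -0.17. High against middle also gave 0 members, where 0.0165% of all genes were higher and 0% lower. At an unadjusted p under 0.05 there were 2 members, beside 1272 of all 12094 genes, and DESeq2 called 0 members. Both comparisons with low use the same low libraries, so they are not independent of each other. In replicates 2 and 3 alone, with the block, high against low gave 22 members, of which 18 fell and 4 rose, where 14.1% and 11.9% of all genes did. Middle against low gave 12 that fell and 2 that rose, where 3.58% and 3.18% of all genes did, and high against middle gave 2 that fell, Naglu and Cd68, where 3.68% of all genes fell and 3.68% rose. The fit of replicates 2 and 3 alone has 2 libraries per gel, and its estimate of spread is drawn in part from other genes. Replicate 1 was already known to stand apart in these data when it was left out. A pass in replicates 2 and 3 alone is therefore not an independent result.

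**Figure D2:**
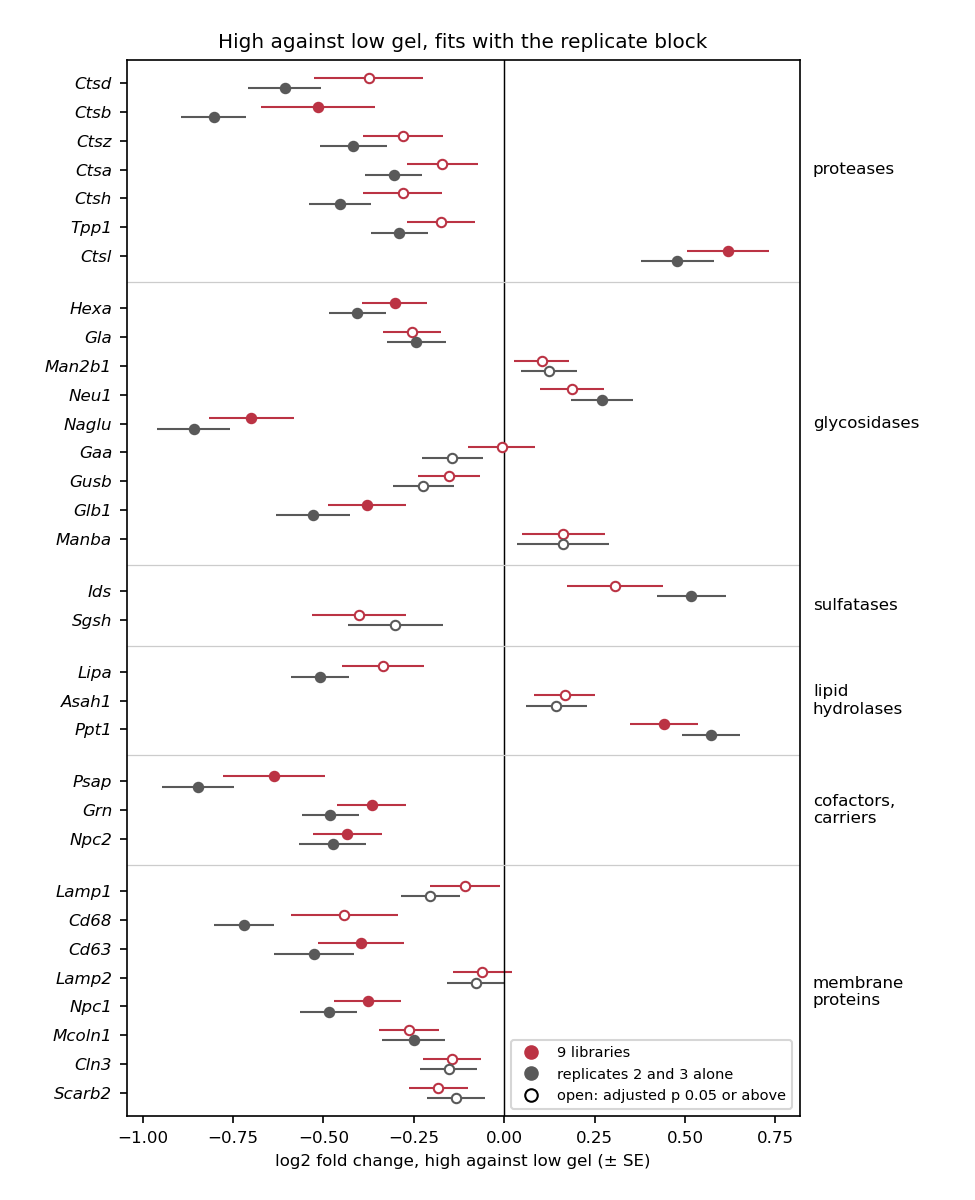
Log2 fold change of each gene in high against low gel with its SE, from the fit of all 9 libraries with the replicate block (red) and from replicates 2 and 3 alone (grey); filled points have an adjusted p under 0.05. With 9 libraries 9 genes are filled on the left and 2 on the right, and in replicates 2 and 3 alone 18 and 4.

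Without any model, the high and low libraries did not overlap for 4 members, Glb1, Sgsh, Grn and Lamp2, all lower in high, as were 6.76% of all genes. Lipa alone was lower without overlap in middle than in low (4.2% of all genes), and Lamp2 alone in high than in middle (2.54%). For Lamp2 the gap is small, from 102.3 to 105.9 RPKM in high beside 106 to 111.3 in low. High was below low within all 3 replicate numbers for 16 of the 32 genes, and for 24.8% of all genes.

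The 7 proteases among the members are cathepsins and the tripeptidyl peptidase Tpp1. Of these 1 rose and 1 fell in high, beside 6.72% and 8.73% of all genes. Ctsd encodes the main aspartic protease and Ctsb, Ctsz, Ctsh and Ctsl encode cysteine proteases of the papain family. Ctsl, cathepsin L, stood at 91.7, 68.4 and 57.4 RPKM in low replicates 1 to 3, 130, 70.9 and 77.4 in middle and 171, 81.9 and 93.9 in high. Levels in high were above low within each replicate number, and replicate 1 was the highest of each group. The log2 difference was 0.62 ± 0.11 (SE), adjusted p = 0.00476, 53.6% above low.

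Ctsb, cathepsin B, stood at 1260, 1237 and 1140 RPKM in low replicates 1 to 3, 1156, 782 and 793 in middle and 1317, 740 and 626 in high. Low and high overlapped because high replicate 1 lay above every low library, and only replicates 2 and 3 were lower in high. Its log2 difference was -0.52 ± 0.16 (SE), adjusted p = 0.0499, at the edge of the threshold, and it was not called when library totals over all genes were kept before TMM. In replicates 2 and 3 alone it was -0.80 ± 0.09, adjusted p = 6.7e-06.

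Ctsd stood at 3423, 3217 and 2774 RPKM in low replicates 1 to 3, 3609, 2134 and 2303 in middle and 3671, 2196 and 1752 in high. High replicate 1 was the highest library of all and high replicate 3 the lowest, and the difference did not pass (-0.38 ± 0.15 (SE), adjusted p = 0.114). Cathepsin Z, a carboxypeptidase encoded by Ctsz, stood at 731, 583 and 508 RPKM in low replicates 1 to 3, 684, 410 and 439 in middle and 727, 452 and 368 in high. Cathepsin H, an aminopeptidase encoded by Ctsh, stood at 99.3, 196 and 171 RPKM in low replicates 1 to 3, 89.1, 143 and 152 in middle and 104, 136 and 133 in high. For Ctsz replicate 1 was above the other replicates in every gel, and for Ctsh below them. Neither passed with 9 libraries (Ctsz -0.28 ± 0.11 (SE), adjusted p = 0.111). Ctsb, Ctsd, Ctsz, Ctsh, Ctsa and Tpp1 all fell in replicates 2 and 3 alone, where 14.1% of all genes fell. The remaining 2, the carboxypeptidase Ctsa and Tpp1, lay between 126 and 169 RPKM and between 76.6 and 116 RPKM, with log2 differences of -0.17 and -0.175.

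Glycosidases strip sugars from glycolipids, glycoproteins and glycosaminoglycans. In high 3 of the 9 fell and none rose, beside 8.73% and 6.72% of all genes. Naglu, which removes N-acetylglucosamine from heparan sulfate, stood at 55.3, 34.4 and 29.3 RPKM in low replicates 1 to 3, 41.9, 24.1 and 24.3 in middle and 41.5, 20.2 and 15.1 in high. Low was above high within each replicate number, but the groups overlapped because replicate 1 was higher throughout. It had the lowest adjusted p of the 32 genes (log2 difference -0.70 ± 0.12 (SE), adjusted p = 0.00311), or -38.4%, and in replicates 2 and 3 alone it was -0.86 ± 0.10, adjusted p = 1.24e-05.

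Glb1, the beta-galactosidase that acts on GM1 ganglioside, stood at 14.03, 18.7 and 17.99 RPKM in low replicates 1 to 3, 13.1, 13.9 and 14.9 in middle and 13.4, 13.2 and 12.3 in high. All 3 high libraries lay below all 3 low libraries (-0.38 ± 0.11 (SE), adjusted p = 0.0382). Hexa, a subunit of beta-hexosaminidase, was the most abundant glycosidase, at 308, 276 and 246 RPKM in low replicates 1 to 3, 293, 221 and 212 in middle and 288, 213 and 182 in high. Replicate 1 was the highest in each gel, and the difference passed narrowly (-0.30 ± 0.09 (SE), adjusted p = 0.0446).

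Gla, alpha-galactosidase A, stood at 170, 76.5 and 68.8 RPKM in low replicates 1 to 3, 137, 62.02 and 58.5 in middle and 139, 68.3 and 55.1 in high. Replicate 1 was the highest of each gel, and the difference between gels missed the threshold with 9 libraries (-0.26 ± 0.08 (SE), adjusted p = 0.0521) but passed in replicates 2 and 3 alone (-0.24 ± 0.08, adjusted p = 0.0392). Neu1, a sialidase, stood at 35.6, 42.3 and 38.6 RPKM in low replicates 1 to 3, 33.95, 46.4 and 45.97 in middle and 36.02, 46.9 and 50.9 in high, and its difference was positive without passing (0.19 ± 0.09 (SE), adjusted p = 0.179). It rose in replicates 2 and 3 alone (0.27 ± 0.09, adjusted p = 0.0292). The alpha-glucosidase Gaa, the beta-glucuronidase Gusb and the mannosidases Man2b1 and Manba were not called, with log2 differences of -0.0070, -0.15, 0.10 and 0.16.

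The sulfatases Ids and Sgsh, which act on sulfated glycosaminoglycans, were the least abundant class, and neither passed. Ids stood at 4.32, 6.71 and 7.36 RPKM in low replicates 1 to 3, 4.42, 9.11 and 8.67 in middle and 3.76, 10.3 and 9.90 in high. Replicates 2 and 3 were higher in high than in low, while replicate 1 was lower (0.31 ± 0.13 (SE), adjusted p = 0.141), and in replicates 2 and 3 alone the rise passed (0.52 ± 0.10, adjusted p = 0.000815). Sgsh stood at 6.38, 6.63 and 6.19 RPKM in low replicates 1 to 3, 4.55, 5.47 and 6.37 in middle and 4.18, 5.78 and 4.64 in high, and all high libraries were below all low ones (-0.40 ± 0.13 (SE), adjusted p = 0.058).

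Among the lipid hydrolases 1 of 3 rose, beside 6.72% of all genes. Ppt1, which removes palmitate from proteins, stood at 38.7, 58.96 and 61.6 RPKM in low replicates 1 to 3, 43.3, 79.6 and 78.4 in middle and 43.5, 87.5 and 92.1 in high. Its level was higher in high than in low within each replicate number, and replicate 1 was the lowest in each gel. The log2 difference was 0.44 ± 0.09 (SE), adjusted p = 0.00984, 35.8% above low. Lipa, the acid lipase that frees cholesterol from its esters, stood at 415, 452 and 433 RPKM in low replicates 1 to 3, 387, 326 and 325 in middle and 419, 329 and 294 in high. Low replicates 2 and 3 were the highest libraries, and the difference missed the threshold with 9 libraries (-0.34 ± 0.11 (SE), adjusted p = 0.0672) but passed in replicates 2 and 3 alone (-0.51 ± 0.08, adjusted p = 0.000201). The acid ceramidase Asah1 stood at 51.1, 90.2 and 78.6 RPKM in low replicates 1 to 3, 56.7, 86.8 and 92.7 in middle and 59.1, 94.5 and 92.1 in high, and its groups overlapped (0.17 ± 0.08 (SE), adjusted p = 0.203).

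All 3 soluble cofactors and lipid carriers fell, beside 8.73% of all genes. Psap, the precursor of the saposins that present sphingolipids to hydrolases, stood at 4689, 3721 and 3481 RPKM in low replicates 1 to 3, 4076, 2537 and 2502 in middle and 4017, 2298 and 1742 in high. Each high library was below the low library of its number, most in replicate 3, and replicate 1 was the highest in each gel. The log2 difference was -0.64 ± 0.14 (SE), adjusted p = 0.0121, or -35.7%. Npc2, which carries cholesterol inside the lysosome, stood at 240, 204 and 174 RPKM in low replicates 1 to 3, 182, 136 and 153 in middle and 187, 143 and 129 in high, with high below low within each number (-0.43 ± 0.10 (SE), adjusted p = 0.0119). Grn, which encodes progranulin, the precursor of the granulins, stood at 336, 435 and 441 RPKM in low replicates 1 to 3, 289, 372 and 357 in middle and 303, 315 and 314 in high. The 3 high libraries were close together and all below low (-0.37 ± 0.10 (SE), adjusted p = 0.0249). In the middle gel none of the 3 passed, at log2 differences of -0.42 for Psap, -0.39 for Npc2 and -0.25 for Grn.

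Of the 8 membrane proteins 2 fell and none rose, beside 8.73% and 6.72% of all genes. Npc1, the membrane partner of Npc2 in cholesterol export, stood at 114, 91.3 and 88.7 RPKM in low replicates 1 to 3, 93.2, 75.1 and 68.2 in middle and 102, 68.6 and 60.4 in high, with high below low within each number (-0.38 ± 0.09 (SE), adjusted p = 0.0193). Cd63, a tetraspanin of lysosomes and granules, stood at 422, 144 and 122 RPKM in low replicates 1 to 3, 357, 102 and 109 in middle and 380, 109 and 77.8 in high. Replicate 1 was far above the other replicates in every gel, and within each number high was below low (-0.40 ± 0.12 (SE), adjusted p = 0.044). Cd68, a mucin-like protein widely used as a macrophage marker, stood at 726, 914 and 933 RPKM in low replicates 1 to 3, 647, 733 and 682 in middle and 772, 550 and 574 in high. High replicate 1 was above low replicate 1, and the difference did not pass with 9 libraries (-0.44 ± 0.15 (SE), adjusted p = 0.0713) but did in replicates 2 and 3 alone (-0.72 ± 0.08, adjusted p = 9.69e-06).

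Lamp1, the most abundant membrane protein and part of the lining of the lysosome, stood at 1006, 859 and 863 RPKM in low replicates 1 to 3, 989, 801 and 770 in middle and 1061, 771 and 727 in high, with no call (-0.11 ± 0.10 (SE), adjusted p = 0.485). Mcoln1, a calcium channel, stood at 70.7, 50.6 and 52.8 RPKM in low replicates 1 to 3, 60.6, 53.8 and 48.4 in middle and 57.8, 44.2 and 42.9 in high. Scarb2, the receptor that carries glucocerebrosidase, stood at 62.03, 39.3 and 38.1 RPKM in low replicates 1 to 3, 57.5, 34.7 and 37.3 in middle and 50.8, 36.4 and 34.3 in high. The gels overlapped for both, and neither passed with 9 libraries (Mcoln1 -0.26 ± 0.08 (SE), adjusted p = 0.0518), while Mcoln1 passed in replicates 2 and 3 alone (-0.25 ± 0.09, adjusted p = 0.0431). Lamp2 and Cln3 were not called either, with log2 differences of -0.060 and -0.14.

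**Figure D3:**
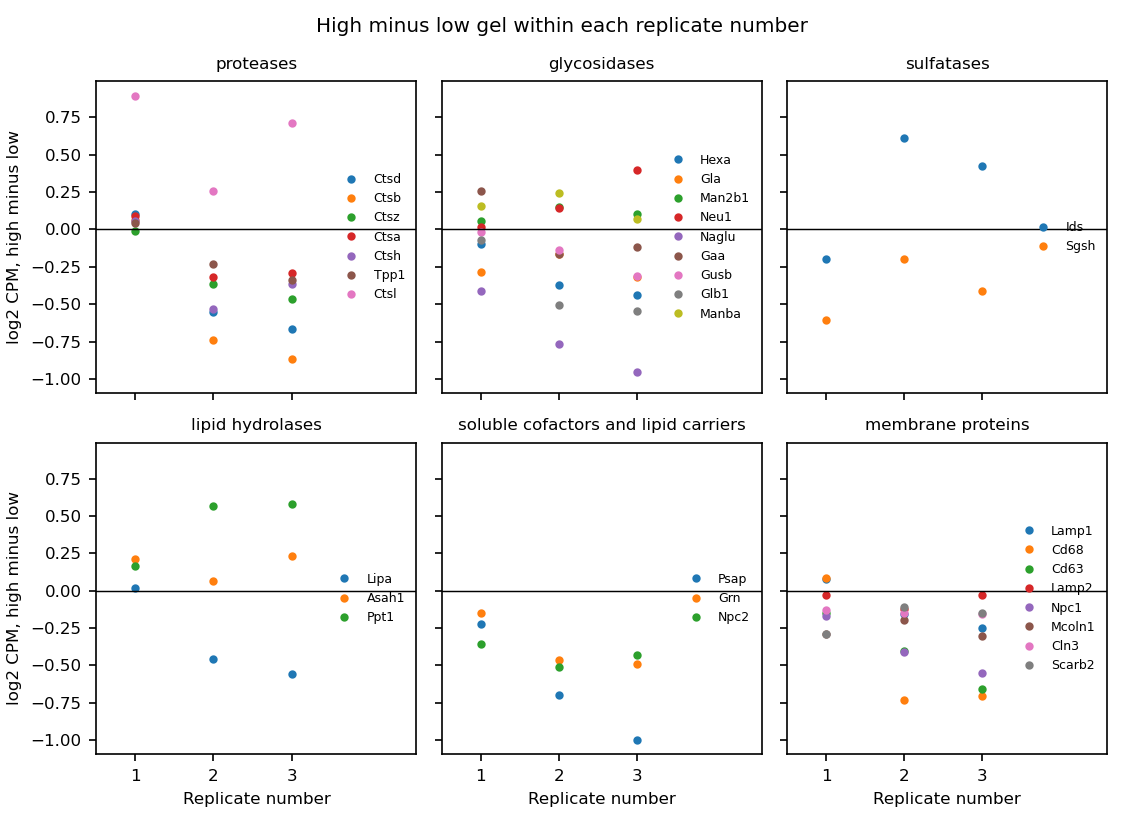
Difference in log2 CPM between the high and the low library of the same replicate number, 1 point per gene, in 6 panels by class. In replicate 1 the points centre near 0 (median -0.012), and in replicates 2 and 3 most lie below it (medians -0.22 and -0.33). Ctsl, Ppt1, Ids, Man2b1, Manba, Neu1 and Asah1 lie above 0 in both replicates 2 and 3.

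Within replicate numbers, high was below low for 17 of the 32 genes within replicate 1 and for 25 within each of replicates 2 and 3, while 50.2% to 50.6% of all genes were. An interaction term compared the high minus low difference in replicate 1 with that in replicates 2 and 3. Replicate 1 has 1 library per gel, so its side has no replicate of its own, and the spread comes from replicates 2 and 3 and is assumed to hold for replicate 1. On that assumption 6 members passed (8.36% of all genes): Ctsb, Cd68, Ctsd, Lipa, Ctsh and Ids. This count was 2 without low replicate 2 or middle replicate 2, 3 without middle replicate 3 and 16 without high replicate 2.

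More members differed by replicate number than by gel. Against the average of replicates 2 and 3, 18 members were higher in replicate 1 and 7 lower, where 32.9% and 32.5% of all genes were. Replicate 1 did not overlap with the others for 15 members higher and 6 lower, beside 27.7% and 26.5% of all genes. The contrast was examined because earlier results of these data had set replicate 1 apart, and neutrophil markers differed in the same contrast (0 higher and 14 lower of 15), whose part was not tested. The largest excess was that of Cd63, at 1.82 ± 0.10 (SE), adjusted p = 7.68e-08 on the log2 scale, followed by Gla at 1.20 ± 0.07 (SE), adjusted p = 8.36e-08. Naglu, Ctsl and Cln3 were also higher, by 0.95, 0.77 and 0.73. The lower members were Ids (-1.04 ± 0.12 (SE), adjusted p = 1.81e-05), Ppt1, Man2b1, Asah1, Ctsh, Neu1 and Grn, at log2 differences of -0.85, -0.85, -0.68, -0.66, -0.35 and -0.25. By class, 5 proteases, 5 glycosidases, 6 membrane proteins and 2 cofactors or carriers were higher. In the same classes 1 protease, 2 glycosidases, 0 membrane proteins and 1 cofactor or carrier were lower. Of the lipid hydrolases 2 of 3 were lower, as was 1 sulfatase, and none of those 2 classes was higher.

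**Figure D4:**
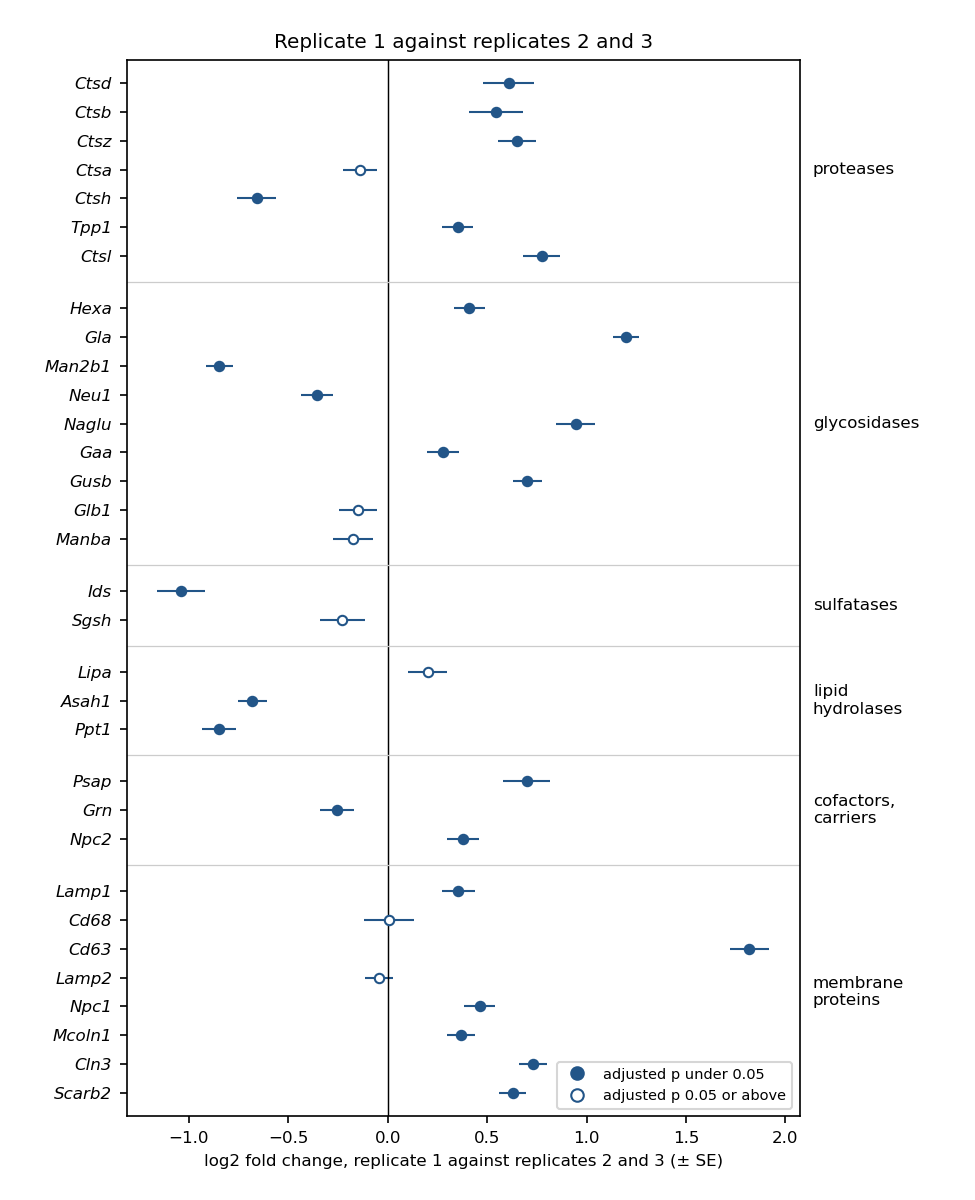
Log2 fold change of replicate 1 against replicates 2 and 3 for each gene, with its SE, from the fit with gel as a term; filled points have an adjusted p under 0.05. There are 18 filled points above 0, led by Cd63 (1.82) and Gla (1.20), and 7 below 0, led by Ids (-1.04).

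Other genes of the lysosome were described from lists of the pathway, by counts beside the 8.73% of all genes that fell and the 6.72% that rose. Of 33 tested other lysosomal hydrolases 8 fell and 3 rose in high (median -0.15). Hpse, the heparanase, had the smallest p, at -1.05 ± 0.09 (SE). Rnaset2b and Rnaset2a, ribonucleases from near-identical copies whose reads the counting could split, rose by 0.83 and 0.69. Of 27 other membrane proteins 4 fell, among them the cystine exporter Ctns (-0.49) and Gpr137b (-0.44), and the peptide and histidine transporter Slc15a3 rose (0.59). Of 13 regulators of lysosomal genes 6 fell and 0 rose, including Rragd, a Rag GTPase (-0.82), Fnip1 (-0.39) and Tfeb (-0.48). Of 14 genes of mannose 6-phosphate tagging and sorting 3 rose, M6pr, Gnptab and Sort1 (0.45, 0.37 and 0.46), and 1 fell. Of 16 V-ATPase subunits 2 fell, Atp6v1c1 and Atp6v1a (-0.38 and -0.35). Of 19 autophagy genes 2 fell, Optn and Nbr1, and 1 rose, Atg9a. Of 7 tested inhibitors of cysteine proteases 1 rose, Stfa3 (1.16 ± 0.24), a member of a family of close copies. In replicate 1 against replicates 2 and 3, where 32.9% of all genes were higher and 32.5% lower, 14 V-ATPase subunits were higher and 0 lower. The same counts were 13 and 4 for autophagy genes, 13 and 14 for other hydrolases, 10 and 8 for other membrane proteins, 8 and 4 for regulators, 6 and 6 for tagging and sorting, and 1 and 4 for protease inhibitors. Among cell type markers, for high against low, 7 macrophage markers fell and 3 rose of 15, and 5 neutrophil markers fell and 1 rose of 15. Their part in the lysosomal differences was not tested.

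Promoter sequence was available for 28 of the 32 genes, in windows of 300 bases from 250 before to 50 after the start of transcription (RefSeq, build GRCm38.p6, while the counts were made on GRCm39). Motifs were searched on both strands after the values were known: CACGTG, the E-box core; TCACGTGA, a longer form that contains it; and TGACTCA, the AP-1 site. CACGTG stood in 11 of the 28 (39.3%), beside 8.09% of all genes in the promoter table and 11.7% of the tested genes in it. TCACGTGA stood in 5 (17.9%), beside 1.12% and 2.22%, and TGACTCA in 4 (14.3%), beside 5.95% and 4.7%. Of the members that fell in high 2 of 7 with a promoter held CACGTG, of those that rose 1 of 2, and of those not called 8 of 19. TCACGTGA stood in 0 of the 7, 0 of the 2 and 5 of the 19, and TGACTCA in 2 of the 7, 0 of the 2 and 2 of the 19. A match describes the letters only. The windows below are those of Naglu and Ctsl, called in every fit that left out 1 library, of Gla, which holds 2 copies of TCACGTGA, of Psap, the most abundant member, and of Lamp1, which holds 4 copies of CACGTG; capitals mark matches to any of the 3 motifs. The windows are chr11:101069844-101070143 (Naglu, plus strand), chr13:64370471-64370770 (Ctsl, minus), chrX:134600956-134601255 (Gla, minus), chr10:60277378-60277677 (the first of 2 windows of Psap, plus) and chr8:13158911-13159210 (Lamp1, plus).
Naglu: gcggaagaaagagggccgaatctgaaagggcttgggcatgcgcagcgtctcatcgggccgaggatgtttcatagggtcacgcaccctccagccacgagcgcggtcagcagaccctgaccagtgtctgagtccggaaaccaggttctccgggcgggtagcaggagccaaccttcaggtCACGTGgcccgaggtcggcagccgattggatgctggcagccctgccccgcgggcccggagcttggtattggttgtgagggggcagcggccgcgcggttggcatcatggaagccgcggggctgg
Ctsl: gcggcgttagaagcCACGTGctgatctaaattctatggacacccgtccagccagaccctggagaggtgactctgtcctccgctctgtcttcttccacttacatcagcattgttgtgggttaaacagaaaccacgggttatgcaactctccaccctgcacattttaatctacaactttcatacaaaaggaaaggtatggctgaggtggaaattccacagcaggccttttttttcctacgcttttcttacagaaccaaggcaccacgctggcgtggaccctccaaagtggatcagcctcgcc
Gla: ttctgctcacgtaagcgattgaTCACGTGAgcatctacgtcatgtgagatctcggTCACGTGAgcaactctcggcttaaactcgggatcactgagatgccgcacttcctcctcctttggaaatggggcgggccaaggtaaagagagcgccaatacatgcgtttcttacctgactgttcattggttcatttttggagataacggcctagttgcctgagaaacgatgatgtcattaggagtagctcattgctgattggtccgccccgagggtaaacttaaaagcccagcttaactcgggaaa
Psap: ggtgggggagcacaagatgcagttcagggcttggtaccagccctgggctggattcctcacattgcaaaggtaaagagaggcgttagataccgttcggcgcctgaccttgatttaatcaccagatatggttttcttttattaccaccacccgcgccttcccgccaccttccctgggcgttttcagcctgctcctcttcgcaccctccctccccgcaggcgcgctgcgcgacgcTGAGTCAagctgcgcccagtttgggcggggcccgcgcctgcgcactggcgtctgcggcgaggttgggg
Lamp1: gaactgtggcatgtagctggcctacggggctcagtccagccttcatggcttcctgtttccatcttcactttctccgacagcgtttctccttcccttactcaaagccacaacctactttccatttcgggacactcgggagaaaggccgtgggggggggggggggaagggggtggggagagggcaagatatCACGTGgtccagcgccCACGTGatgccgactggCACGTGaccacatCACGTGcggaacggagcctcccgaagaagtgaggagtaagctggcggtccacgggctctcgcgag
Naglu, which fell in high, and Ctsl, which rose, each held 1 CACGTG, its first base at -73 and -236 from the start. Psap held none in this window, and 1 TGACTCA at -18.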

How the data were processed

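The deposited files give, for each of 9 libraries, raw counts for 22173 genes, the authors' FPKM and another deposited value, the exonic size. On GRCm39 the authors used HISAT2 2.0.1 and HTSeq 0.6.1, with cutadapt 1.9.1 and DESeq2 also named, per the submitters' processing notes; parameters: not given in the sources used here. The authors' FPKM matched the counts and sizes within 0.0051 and was not used further. The deposited counts were tested in R 4.3.3 with edgeR 4.0.16 (filterByExpr, TMM, robust quasi-likelihood fit, Benjamini-Hochberg over 12094 genes, two-sided, threshold 0.05). The scripts were tested on simulated data, where the blocked fit made more false calls than its nominal share in most draws, so its calls close to the threshold (Glb1, Cd63, Hexa and Ctsb) are the least secure. DESeq2 1.42.0 was an alternative. Each SE equals the absolute log2 difference over the root of its F statistic. Levels are RPKM from TMM-scaled counts; differences within a replicate number are of log2 CPM with a prior count of 2.

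Library totals were recomputed over the tested genes. This was adopted after the counts of calls under both settings had been seen, to match earlier processing of these data; with totals over all genes, 10 members in place of 11 passed in the blocked fit of high against low.

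Replicate numbers come from the titles. After removal of group means, same-numbered libraries correlated at 0.595 to 0.856, every pair above 0.1, the condition for a block, but replicates 2 and 3 of different groups also had 0.552 to 0.698, so that most of the structure is replicate 1 against the others. No 2 libraries of a group agreed within sampling noise (chi-square per degree of freedom 5.03 or more). The members, lists, tests and alternatives were chosen with earlier results of these data known. Named members are, per class, the most abundant and up to 5 with the smallest p in the blocked high against low contrast, and up to 3 per pathway list. The 3 promoter motifs were chosen after the data had been seen, and all 3 searched are reported. Plots used Python with matplotlib.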

Additional observations from a re-analysis of the deposited data

Results flagged for a closer look

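For 6 members the high against low difference in replicate 1 differed from that in replicates 2 and 3 by an interaction term in edgeR's quasi-likelihood fit adjusted over 12094 genes, of which 8.36% passed. Replicate 1 has 1 library per gel, so the SE and p rest on the spread of replicates 2 and 3, assumed to hold for replicate 1. The count of members was 2 to 16 on leaving out 1 library. The excess of the replicate 1 difference was 0.86 ± 0.16 (SE, log2, adjusted p = 0.00611) for Ctsb, 0.80 ± 0.13 (0.0023) for Cd68 and 0.70 ± 0.19 (0.0455) for Ctsd. It was 0.52 ± 0.13 (0.0331) for Lipa, 0.51 ± 0.14 (0.0436) for Ctsh and -0.72 ± 0.17 (0.0243) for Ids. Within replicate 1 alone, with 1 library per gel, the high minus low differences of these genes were 0.064, 0.088, 0.10, 0.015, 0.059 and -0.20 in the same order, and in replicates 2 and 3 they were -0.46 or lower for Ctsb, Cd68, Ctsd and Lipa, -0.53 and -0.37 for Ctsh, and 0.61 and 0.43 for Ids. DESeq2 also called 6 members, all with positive values, so Ids was not among them. The summed neutrophil markers changed between low and high by 40.6% in replicate 1 and by -33.9% and -17.4% in replicates 2 and 3, and the macrophage markers by -6.36%, -40.5% and -42.3%. The rise of the neutrophil sum in replicate 1 lay mostly in S100a8 and Lcn2, while Ltf, Ngp, Retnlg, Cxcr2, Csf3r, Cd177, Mpo and Elane were lower. The part of either marker list in these differences was not tested.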

How the results depend on the processing

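Without the replicate block 0 members were called in each comparison under every alternative with 9 libraries except the block itself, which gave 11 for high against low, and under leaving out any 1 library. Replicates 2 and 3 alone with the block gave 14 members for middle against low, 22 for high against low, and 2 for high against middle. With the block, high against low gave 10 members with RLE factors, 15 with library totals without TMM factors, 11 with no filter on low counts, 12 with DESeq2 and 10 with totals over all genes before TMM, an alternative chosen after seeing the data; it gave 0 with no replicate block. Leaving out 1 library gave 2 to 19. Of all genes called there, 43.5% were higher in high with TMM and 32.1% without TMM factors. Middle against low with the block gave 1 member with no filter, 2 with DESeq2 and 0 to 12 without 1 library, and high against middle 0 to 1. The interaction gave 11 members with no filter and 2 to 16 without 1 library; without low replicate 1 or high replicate 1 it could not be fitted. Replicate 1 against the others gave 24 to 27 members without 1 library and 25 under every scaling, filter and tool tried. Shares of all genes called under the alternatives of scaling, filter, tool and left-out library are not given here. These counts therefore do not show a change particular to the members.

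Signs turned for values near 0. Gaa for high against low was 0.0011 with RLE, 0.00030 with no filter, 0.0011 with DESeq2, 0.000994 with totals over all genes, 0.010 with no replicate block, and -0.12 to 0.075 without 1 library. For middle against low Gaa ranged from -0.15 to 0.0057 and Manba from -0.14 to 0.090 without 1 library. Cd68 in replicate 1 against the others was -0.00751 with RLE, -0.000263 with no filter, -0.00747 with DESeq2 and -0.23 to 0.18 without 1 library, the lowest without high replicate 1 (adjusted p = 0.0361). The median of the members for high against middle ranged from -0.12 to 0.015 without 1 library. The causes were not tested. The biological coefficient of variation between libraries was 0.337 without and 0.115 with the block. The least counted member, Sgsh, had 254 to 529 counts per library.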
